A study of Mus musculus with 14 samples.

Results

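The early response of the mouse thymus to dietary genistein was described from 4 of the 14 arrays of the series: the 2 arrays of mice fed genistein for 2 days and the 2 arrays of untreated mice taken at day 0. Both groups were female C57BL/6 mice, an inbred strain, described as 21 days old, whose ovaries were removed on day 26 and which received a phytoestrogen-free AIN-93G diet from 2 days later. The labels do not say whether days 26 and 30 are days of age. Genistein was mixed into that diet at 1500 ppm and eaten freely from day 30, and no injection is listed for either group. Each array carried thymus RNA pooled from 3 mice, so a group stands for 6 mice, and the labels call the 2 pools independent biological replicates. Untreated mice of day 2 were not analysed here. Genistein therefore cannot be told apart from the 2 days of ageing, of time since ovary removal and of time on the base diet. The other 10 arrays (genistein at days 3 and 6, and 17β-estradiol at days 2, 3 and 6, given under the skin each day as 125 ng in 0.02 ml of corn oil) lent their spread to the test and served for the comparisons at the end.

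Genistein is a soy isoflavone that binds estrogen receptors, with a preference for the beta form, and also inhibits protein tyrosine kinases. The thymus, in which T cells mature from CD4+CD8+ double-positive thymocytes under the guidance of cortical and medullary epithelium, shrinks under estrogens and under glucocorticoids. Genes of the heat shock response, the endoplasmic reticulum and the cholesterol pathway are each known to be switched on together by dedicated transcription factors. They and other genes were read as lists, and all lists were chosen with earlier results of these data known.

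Signals are array fluorescence summaries with no unit, and a level is compared only within a probe set, the group of probes that measures 1 transcript. Of 22690 probe sets, 13575 were bright enough to be tested and stood for 8214 genes, each represented below by its brightest probe set. Differences are on the log2(signal + 16) scale, which understates the change of dim genes, and SE and adjusted p come from limma with Benjamini-Hochberg adjustment over all 13575 probe sets. Untreated replicate 2 stood apart from the other 13 arrays, with a mean correlation of 0.942 to them over all probe sets tested. Untreated replicate 1 was closer to genistein replicate 2 (r = 0.976) than to untreated replicate 2 (r = 0.9551), and the genistein arrays correlated with each other at 0.9602. The tissue label was borne out by its markers: Rag1, the recombinase of immature lymphocytes, gave signals of 2446.2 and 2313.2 untreated and of 2402.8 and 2225.7 with genistein. Markers of blood and of tissues next to the thymus were in part bright enough to test. Tested were 1 of 5 red blood cell genes, 4 of 10 striated muscle genes and 2 of 4 parathyroid and thyroid genes. For fat cells 7 of 10 genes were tested, and for smooth muscle 5 of 7. The 3' to 5' ratio of Gapdh probe sets, a sign of RNA quality, was 0.9445 and 0.8942 untreated and 0.8668 and 0.9288 with genistein.

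After 2 days of genistein 2 genes passed the test at an adjusted p under 0.05: Slc2a4 rose and C77080 fell, which is 0.00737% of probe sets and 0.0122% of genes in each direction. At an unadjusted p under 0.05, 832 probe sets were higher (6.13%) and 771 lower (5.68%). Both genistein arrays lay above both untreated arrays for 2913 probe sets (21.5%) and below both for 2380 (17.5%), together 39% of those tested. Over genes these shares were 22.3% and 16.4%, together 38.7%, and a list of genes is read against them below. The median change was 0.03 over genes, and 90% of probe sets, between the 5th and 95th percentiles, lay between -0.47 and 0.50. Beyond 2-fold with arrays that did not overlap were 38 probe sets above (0.28%) and 29 below (0.214%). The count of 2 calls rested on single arrays: it was 287 (210 higher, 77 lower) without untreated replicate 1, 0 without untreated replicate 2, 0 without genistein replicate 1, 7 without genistein replicate 2 and 6 without replicate 2 of estradiol day 2.

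Slc2a4, the insulin-responsive glucose transporter of fat and muscle, had signals of 11 and 15.9 on the untreated arrays and of 64.3 and 70.6 on the genistein arrays. The groups lay far apart relative to their spread, and the untreated signals were near the bottom of the scale. The change was 1.51 ± 0.193 (SE; adjusted p = 0.0137), and its size depended on the pseudocount, being 2.26 with 1 and 0.76 with 64. A second Slc2a4 probe set, too dim to be tested, did not show it, with 41 and 30.3 untreated and 35.8 and 25.1 with genistein. The other 6 tested fat cell genes were mixed: genistein arrays lay above both untreated arrays for Retn, the hormone resistin (0.80, adjusted p = 0.373), and the lipase Lpl (0.08, adjusted p = 0.887), below them for Adipoq, the hormone adiponectin (-0.69, adjusted p = 0.478), and the fatty acid carrier Fabp4 (-0.26, adjusted p = 0.62), and overlapped for Scd1 and Cebpa. A dimmer Fabp4 probe set differed more, with 285.5 and 252.3 untreated and 139 and 143.7 with genistein (-0.85, adjusted p = 0.341). C77080 had signals of 112.1 and 116.9 untreated and of 31.7 and 32 with genistein, a change of -1.45 ± 0.183 (adjusted p = 0.0137) in its only tested probe set. Slc2a4 was called in 18 of 26 alternative settings and C77080 in 19 of 26, and neither changed its direction in any of them.

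**Figure D1:**
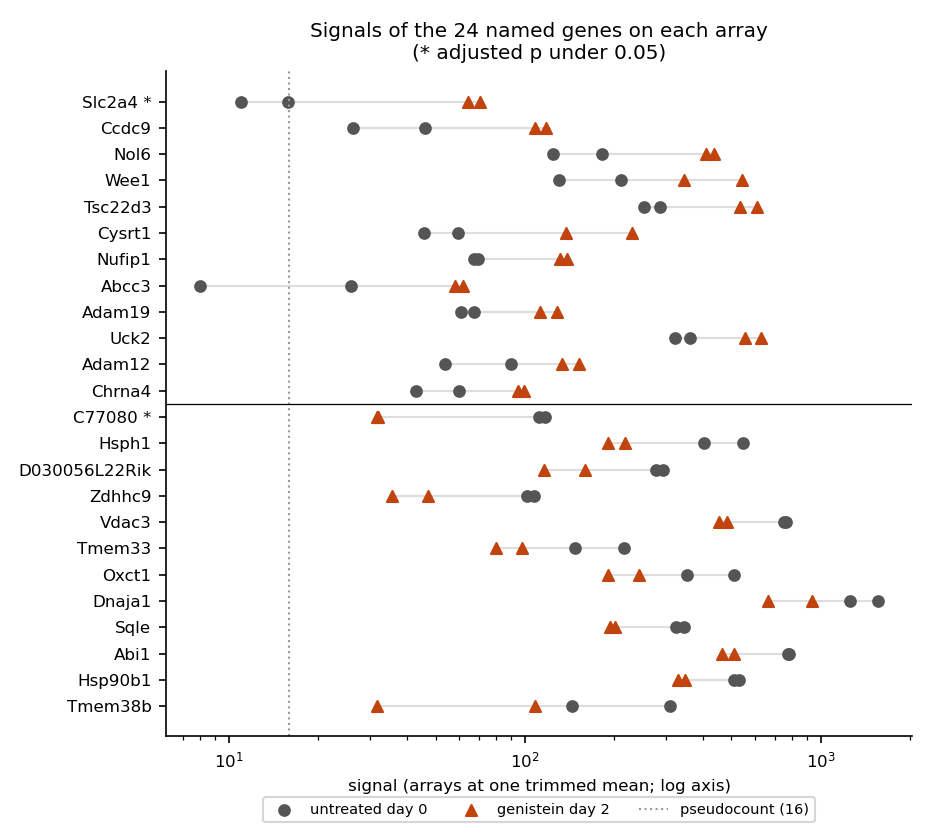
Signal (log axis, no unit) of the 12 genes with the strongest evidence in each direction, with untreated day 0 arrays as circles and genistein day 2 arrays as triangles; the dotted line is the pseudocount of 16. Slc2a4 (64.3 and 70.6 with genistein) and C77080 (31.7 and 32) carry the star of an adjusted p under 0.05, and in all 24 rows the groups do not overlap because the rule required it.

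The genes that came next missed the threshold and are given as values, and all have arrays that do not overlap because that chose them. Among those higher with genistein, Tsc22d3, the glucocorticoid-induced leucine zipper, gave 252.9 and 286.8 untreated and 609.1 and 533.2 with genistein, a difference of 1.04 ± 0.197 (adjusted p = 0.123). A second probe set of Tsc22d3 differed by 0.56 in the same direction and the other one, with overlapping arrays, by 0.17. Wee1, the kinase that holds Cdk1 inactive before mitosis, gave 211.4 and 130.4 untreated and 345.3 and 543.5 with genistein (1.30, adjusted p = 0.123), but its second probe set differed by only 0.02. Nol6, a nucleolar protein of ribosome assembly, showed the same split, with 183.2 and 124.3 against 435.2 and 411.6 in its brighter probe set (1.39, adjusted p = 0.123) and 0.06 in the other. The differences in Wee1 and Nol6 thus belong to 1 probe set each. Uck2, a kinase that salvages uridine and cytidine, gave 321.8 and 362 untreated and 554.6 and 630.7 with genistein (0.77, adjusted p = 0.183), and 0.16 with overlapping arrays in its second probe set. Abcc3, an efflux pump for conjugated compounds, was near the floor untreated (26 and 8) and gave 62.1 and 58 with genistein. The remaining 6 higher genes, Ccdc9, Cysrt1, Nufip1, Adam19, Adam12 and Chrna4, differed by 0.76 to 1.51, with adjusted p from 0.0953 to 0.209. A minor probe set of Klf9, a glucocorticoid-responsive factor, differed by 1.65 (9.8 and 10.2 untreated, 48.5 and 86.8 with genistein, adjusted p = 0.0953), while the brightest Klf9 probe set differed by 0.10.

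Of the 12 lower genes, 4 belong to the chaperone, endoplasmic reticulum or cholesterol lists described below: Hsph1, Dnaja1, Hsp90b1 and Sqle. Vdac3, an anion channel of the outer mitochondrial membrane, was tight within groups, with 763.8 and 754.2 untreated and 453.9 and 483.6 with genistein (-0.68 ± 0.124, adjusted p = 0.109). Oxct1, the mitochondrial enzyme that activates ketone bodies, gave 354.9 and 508.8 against 190.8 and 242.8 (-0.93, adjusted p = 0.176), and its 3 other tested probe sets differed by -0.26, -0.68 and -0.89. Zdhhc9, a palmitoyltransferase, gave 101.6 and 107.9 against 35.6 and 47 (-1.08, adjusted p = 0.107). Abi1, a regulator of actin assembly, gave 785.1 and 776 against 463.9 and 510.4 (-0.66, adjusted p = 0.209), with both other probe sets in the same direction at -0.48 and -0.35. Tmem38b, a potassium channel of the endoplasmic reticulum, varied widely within groups, with 144.3 and 309.5 against 31.6 and 108.4 (-1.57, adjusted p = 0.235), and its second probe set differed by -0.04. Tmem33, another protein of that membrane, gave 147.9 and 216.5 against 79.9 and 98 (-0.90, adjusted p = 0.17), and -0.28 and -0.79 in its other probe sets. D030056L22Rik gave 292.5 and 278.7 against 159.7 and 116.4 (-0.98, adjusted p = 0.107).

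Heat shock and chaperone genes were lower with genistein as a group. Of 14 tested, 12 had a negative difference, and in 10 both genistein arrays lay below both untreated arrays, against 16.4% of all genes. None of the 14 had both genistein arrays above both untreated arrays, where the share over all genes was 22.3%. The median difference was -0.21, against 0.03 over all genes, and stayed between -0.21 and -0.25 when each of the 4 arrays was left out. No member passed limma's adjusted p, and 4 were lower at an unadjusted p under 0.05, against 5% of all genes. Counted over all 29 tested probe sets of these genes, 21 had non-overlapping arrays in the lower direction and 0 in the higher, against 17.5% and 21.5% of all probe sets.

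Hsph1, the Hsp110 nucleotide exchange factor of Hsp70, came nearest to the threshold. Its signals were 549.1 and 402.3 untreated and 218.8 and 191.5 with genistein, a difference of -1.14 ± 0.170 (adjusted p = 0.0507), and its second probe set gave 283.5 and 211.6 against 135.6 and 112.6 (-0.90). It was called in 5 of 27 alternative settings, with adjusted p from 0.0285 to 0.412. Dnaja1, an Hsp40 partner of Hsp70, gave 1261.1 and 1565 against 662.9 and 932.4 (-0.82 ± 0.172, adjusted p = 0.182), and -0.44 in its second probe set. Hspa1b, the stress-inducible Hsp70, gave 286.6 and 143.2 against 91.8 and 104.5 (-0.94, adjusted p = 0.34), so its untreated arrays differed 2-fold from each other, and 2 more probe sets differed by -0.75 and -0.63. Hspa4, another Hsp110 family member, gave 377.6 and 429.3 against 300.8 and 233.2 (-0.57, adjusted p = 0.34). Hsp90aa1, the inducible cytosolic Hsp90, differed by -0.21 and by -0.34 and -0.24 in its other probe sets, and Hspd1, the mitochondrial chaperonin Hsp60, by -0.11. Hspa8, the constitutive Hsp70, differed by -0.18 with overlapping arrays in its brightest probe set, while its other 3 were lower with non-overlapping arrays, at -0.85, -0.62 and -0.28. The 2 members above 0 were Hspa9, the mitochondrial Hsp70, at 0.02 and the small heat shock protein Hspb1 at 0.05, and a dimmer Hspb1 probe set differed by -0.38 with overlapping arrays.

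**Figure D2:**
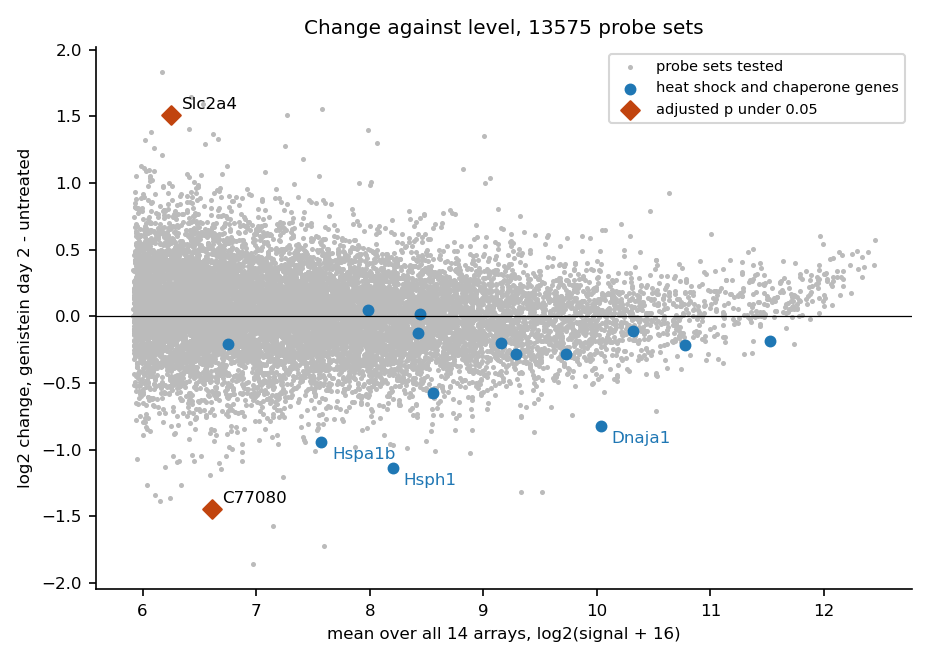
Log2 change with genistein against mean level over all 14 arrays for 13575 probe sets (grey), with the heat shock and chaperone genes in blue and the 2 called genes as diamonds. Of the 14 blue points 12 lie below 0, from -1.14 (Hsph1) upwards, while the brightest grey points on the right lie above 0.

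Heat shock factor binds inverted repeats of GAA, and the heat shock element is the best-known shared sequence of these genes. The letters GAANNTTCNNGAA were searched on both strands in windows of 300 bases around start sites in RefSeq (GRCm38.p6), where overlapping matches count once per window. They were found for 3 of the 11 chaperone genes with a window (Hsph1, Hspd1 and Hspe1) and for 0.662% of 27025 genes. Hspd1 and Hspe1, the Hsp60 and Hsp10 chaperonin genes, are transcribed in opposite directions from a shared promoter, and their match is the same stretch. The stretches of Hspe1 (chr1:55088028-55088147, plus strand, ending just before the start site) and Hsph1 (chr5:149636278-149636307, minus strand, just after the start site) are shown because they hold the match, in capitals, for a gene with a smaller and a gene with a larger difference:
Hspe1: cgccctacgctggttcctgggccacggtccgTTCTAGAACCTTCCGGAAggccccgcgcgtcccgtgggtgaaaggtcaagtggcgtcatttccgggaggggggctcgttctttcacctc
Hsph1: ctgcagaTTCTGGAAAGTTCtcctcagtag
The capitals of Hspe1 span overlapping matches on both strands. Among the 3 genes with the match, the brightest probe sets stood at -1.14 for Hsph1, -0.28 for Hspe1 and -0.11 for Hspd1. Hspe1 gave 879.6 and 1046.5 untreated and 852.2 and 722.6 with genistein. Its dimmer probe set differed more, with 297.6 and 378.1 against 220.7 and 252 (-0.48). A match is a description of the letters and not a bound site.

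In the endoplasmic reticulum, 5 of 14 stress genes had both genistein arrays below both untreated arrays (16.4% of all genes) and 1 had both above (22.3%), with a median difference of -0.04, or -0.10 without genistein replicate 2. The 5 lower ones were Hsp90b1, Hspa5, Dnajb9, Pdia6 and Manf. Hsp90b1, the Hsp90 of the endoplasmic reticulum, gave 510.4 and 532 untreated and 347.4 and 329 with genistein (-0.60 ± 0.139, adjusted p = 0.209), although its second probe set overlapped between groups at -0.12. Hspa5, the Hsp70 known as BiP, gave 1513.4 and 1627.9 against 978.2 and 1355.6 (-0.44, adjusted p = 0.394) and -0.69 in its second probe set. Dnajb9, the Hsp40 that assists BiP, gave 409.5 and 493.4 against 193.9 and 355.9 (-0.74, adjusted p = 0.329). Pdia6, a disulfide isomerase, differed by -0.37 in its brightest probe set and by 0.62 in a dimmer one, so its probe sets disagree. Xbp1 and Atf6, transcription factors of the unfolded protein response, differed by -0.04 each, and the gene with both arrays above was Canx, a membrane-bound lectin chaperone, at 0.38.

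Cholesterol synthesis genes lay more often lower, but not all of them. Of 16 tested, 7 had both genistein arrays below both untreated arrays and 3 had both above, against 16.4% and 22.3% of all genes, and 5 were lower at an unadjusted p under 0.05, against 5% of all genes. The median was -0.16, and -0.07 without genistein replicate 2. Sqle, squalene epoxidase, gave 344.8 and 324.6 untreated and 193.7 and 202.3 with genistein, with close agreement within each group (-0.71 ± 0.161, adjusted p = 0.2). Msmo1, a sterol methyl oxidase, gave 126.4 and 125.4 against 44.1 and 54.1 (-1.13, adjusted p = 0.307). Hmgcs1, which makes the HMG-CoA that enters the pathway, gave 645.1 and 543.5 against 434.6 and 344.1 (-0.59, adjusted p = 0.369), and its 3 other probe sets differed by -0.60, -0.74 and -0.52. Idi1, the isomerase of isoprenoid units, differed by -0.77 (370.8 and 353.1 against 159.1 and 265) and by -0.64 in its second probe set. Cyp51, the lanosterol demethylase, differed by -0.66 (121.8 and 102.8 against 74.8 and 55.9), and Fdps, farnesyl diphosphate synthase, by -0.21. The genes with both arrays above were Mvd at 0.29, Hsd17b7 at 0.21 and Tm7sf2, a sterol reductase, at 0.81, and the last rests on the untreated arrays, which gave 82.5 and 24.2 against 96.9 and 91.6 with genistein.

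**Figure D3:**
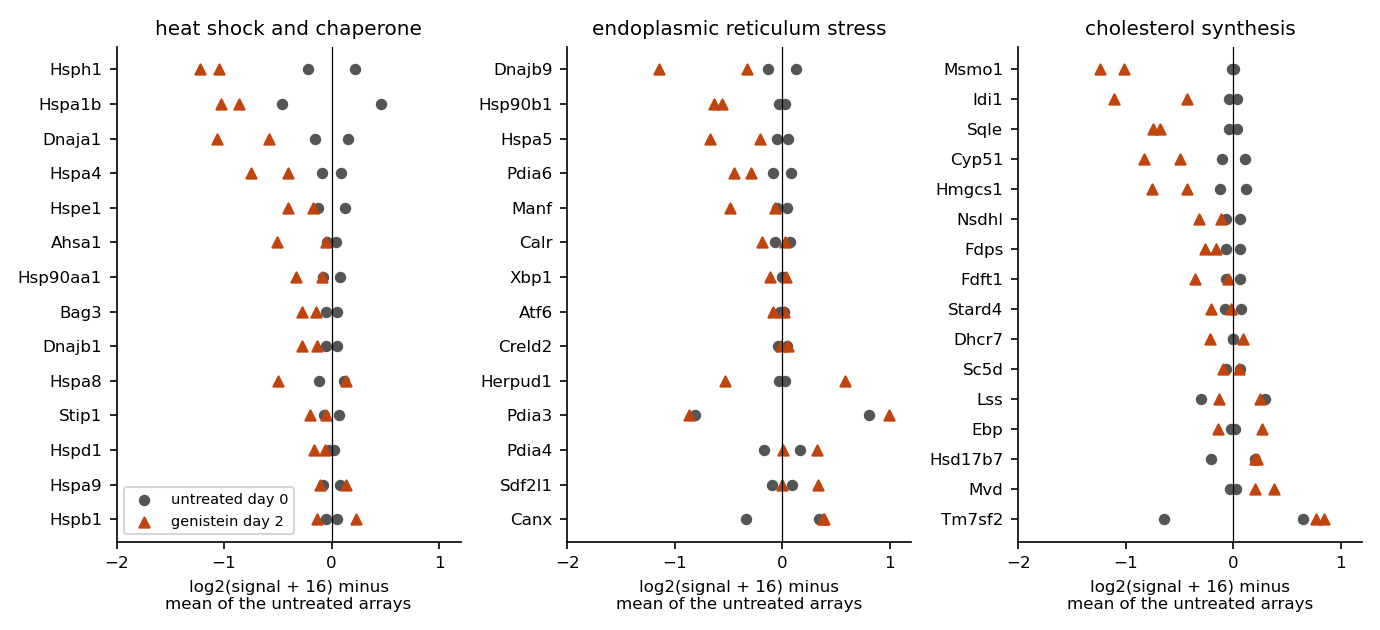
Each array's log2(signal + 16) minus the mean of the untreated arrays for the tested genes of 3 lists, with untreated arrays as circles and genistein arrays as triangles. The triangles lie left of the circles for 10 of 14 chaperone genes, 5 of 14 endoplasmic reticulum genes and 7 of 16 cholesterol genes, and Hspa1b and Tm7sf2 show wide circles.

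The sterol regulatory element, the sequence read by the SREBP factors that switch these genes on, was searched as TCACNCCAC on both strands in the same windows. It was found for 1 of 12 cholesterol genes with a window, Hmgcs1, for Hsp90b1 among the endoplasmic reticulum genes, and for 1.44% of all genes. The Hmgcs1 stretch (chr13:119690171-119690290, plus strand, upstream of the start site) is shown with the match in capitals because all 4 tested probe sets of that gene were lower:
Hmgcs1: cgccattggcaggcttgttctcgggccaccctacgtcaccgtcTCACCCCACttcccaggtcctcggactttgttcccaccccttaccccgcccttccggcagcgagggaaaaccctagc
The palindromic estrogen response element, GGTCANNNTGACC, was found for none of the 16 named genes with a window and for 0.074% of all genes, which says only that these letters are not in those windows.

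Among 18 glucocorticoid-responsive genes, 5 had both genistein arrays above both untreated arrays (22.3% of all genes) and 1 had both below (16.4%). The count above is therefore near the background, and 3 of 18 were higher at an unadjusted p under 0.05, against 6.14% of all genes. They were Tsc22d3, given above, Fkbp5 and Gpx3. Fkbp5, the cochaperone that dampens the glucocorticoid receptor, gave 962.3 and 880.9 untreated and 1162.4 and 1373 with genistein (0.45, adjusted p = 0.369), and its second probe set differed by 0.15 with overlapping arrays. Gpx3, a secreted glutathione peroxidase, gave 133.2 and 123.1 against 197.3 and 160.5 (0.43, adjusted p = 0.387). The receptor itself, Nr3c1, overlapped between groups at -0.04, as did the early targets Sgk1 at -0.16 and Dusp1 at -0.07. The letters GNACANNNTGTNC of a glucocorticoid response element were found for 3 of 17 such genes with a window (Sgk1, Mt1 and Txnip) and for 0.537% of all genes, and none of those 3 had non-overlapping arrays.

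Estrogen-related genes gave no separation beyond the background. The receptors Esr1 and Esr2 and the classical target Pgr fell below the filter on dim probe sets, with signals that averaged 15.5, 14.2 and 19.2 over all arrays. Of 14 tested estrogen receptor, coregulator and target genes, 1 had both genistein arrays above (Myb, a thymocyte transcription factor, at 0.27) and 1 both below (Igfbp4, a binding protein of insulin-like growth factors, at -0.21). The median was 0.05, and the shares over all genes were 22.3% above and 16.4% below. Ahr, the aryl hydrocarbon receptor, differed by 0.24, and by -0.28 in a dimmer probe set, and its 5 tested target genes had a median of -0.01.

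**Figure D4:**
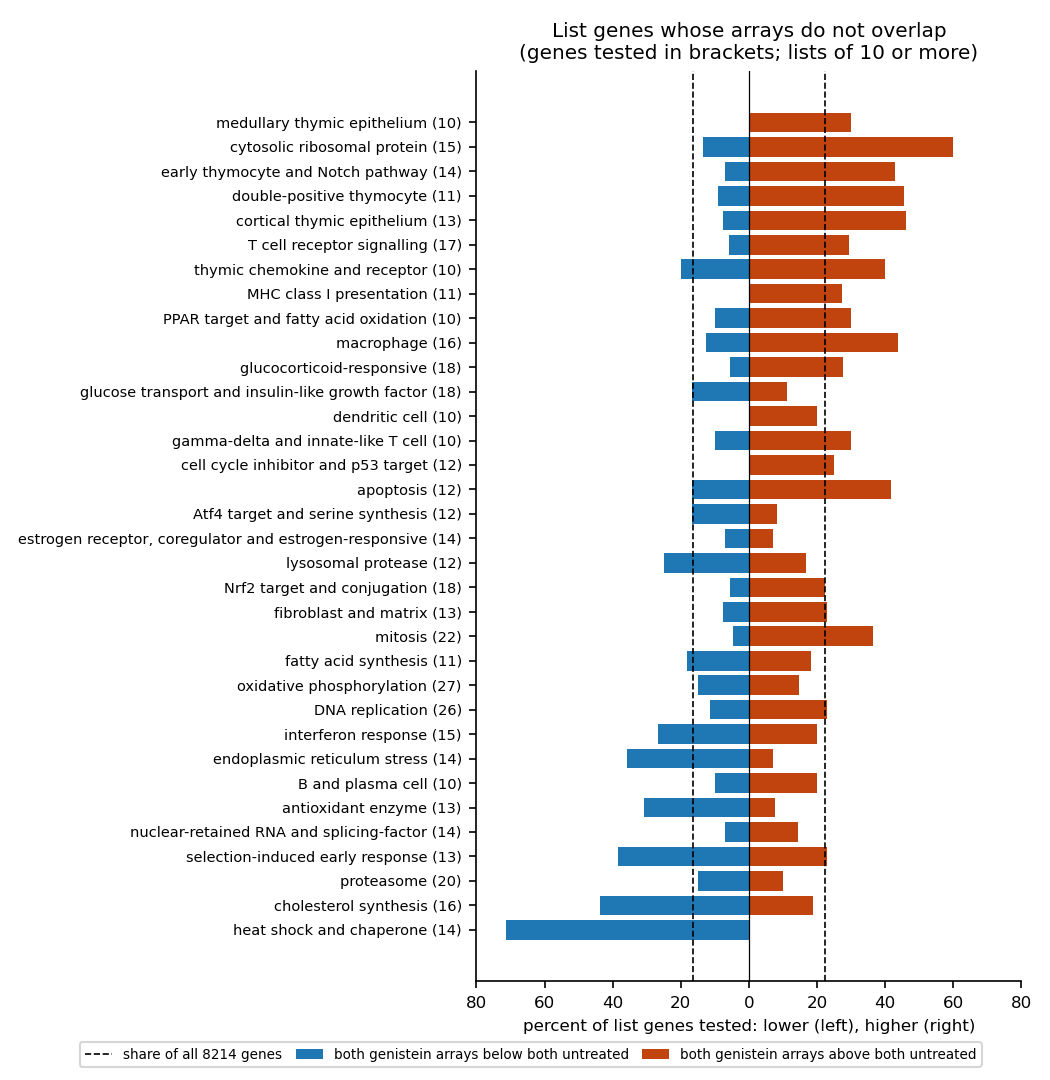
Percent of the tested genes of each list of 10 or more (number in brackets) in which both genistein arrays lie below (left, blue) or above (right, orange) both untreated arrays; dashed lines are the shares over all 8214 genes, 16.4% and 22.3%. The heat shock and chaperone list extends furthest to the left, with 10 of 14 genes and none to the right, and the ribosomal protein list furthest to the right, with 9 of 15.

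Thymocyte lists had small medians that differed in sign, and few of their genes passed an unadjusted p under 0.05 in limma. Of 11 double-positive thymocyte markers 5 had both arrays above and 1 below, with a median of 0.15 (0.08 without untreated replicate 2), and at an unadjusted p under 0.05 none was higher and 1 was lower. Of 14 early thymocyte and Notch pathway genes 6 had both arrays above, with a median of 0.15, and 1 was higher at that p. Of 8 mature single-positive T cell genes none had both arrays above and 3 had both below, with a median of -0.16, which was -0.05 without untreated replicate 1 and -0.03 without genistein replicate 1. The shares over all genes were 22.3% above and 16.4% below, and the difference between the lists was not tested. Cd8b1, a chain of the CD8 coreceptor, gave 2014.4 and 2124.8 untreated and 2371.5 and 2354.5 with genistein (0.19, adjusted p = 0.483). Nrarp, a target and damper of Notch signalling, gave 171.8 and 174.2 against 248.1 and 216.5 (0.39, adjusted p = 0.356), and Notch1 gave 512.2 and 383.9 against 556.6 and 618.6 (0.39, adjusted p = 0.428). Rag2, the partner of Rag1, went the other way, with 383.3 and 506.4 against 283.4 and 311.6 (-0.54, adjusted p = 0.356), while Rag1 and Cd4 overlapped between groups at -0.04 and 0.22. In whole thymus RNA, more cells of a type and more RNA per cell cannot be told apart. Of 17 genes of T cell receptor signalling 5 had both arrays above and 1, the transcription factor Nfatc3, below, with 689.9 and 821.3 against 543.1 and 532.8 (-0.47, adjusted p = 0.307). The second Nfatc3 probe set went the opposite way, with 453.3 and 240.5 against 533.3 and 475.8 (0.58). Of 13 genes that the T cell receptor induces at selection, 5 had both arrays below and 3 above. Egr3 and Id3, which act in series in that response, gave 81.8 and 75.2 against 34 and 49.2 (-0.73) and 352 and 440.6 against 303.1 and 275.8 (-0.43), with adjusted p of 0.376 and 0.363. The median of that list was -0.06 and turned to 0.06 without untreated replicate 1.

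Cortical epithelial genes had 6 of 13 with both arrays above and 1 below, against 22.3% and 16.4% of all genes. Their median was 0.14, which was 0.063 without genistein replicate 1. At an unadjusted p under 0.05, 2 were higher and 2 lower. Ccl25, the chemokine that draws progenitors, gave 1601 and 1544.2 untreated and 1901.2 and 2016.9 with genistein (0.31 ± 0.118, adjusted p = 0.363), and Ctsl, the protease that makes class II peptides in the cortex, 2144.4 and 2227.3 against 2659.6 and 2593.6 (0.26 ± 0.0994, adjusted p = 0.363). Kitl, the growth factor for Kit, was the 1 below, with 110 and 117 against 44.8 and 93.2, but its 2 dimmer probe sets differed by 0.17 and 0.20 with overlapping arrays. Of 10 medullary genes 3 had both arrays above and none below, against the same shares. Tnfrsf11a, the receptor RANK that drives medullary growth, gave 63.7 and 24.8 against 136.5 and 74.5 (1.04, adjusted p = 0.307), and Aire, the regulator of self-antigen display, overlapped at 0.16. The summed signal of the cortical list was 11230 and 11170 untreated and 12690 and 12430 with genistein.

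The size of these bright gene differences moved with signal level. Among 35 probe sets with a mean of at least 12 on the log2 scale all were higher with genistein, with a median of 0.31, and among the 192 between 11 and 12 there were 160 (83.3%) higher, with a median of 0.13. Between 8 and 10 the medians were -0.03. The ribosomal protein list, whose signals were mostly above 1000, had 9 of 15 genes with both arrays above and 2 below, against 22.3% and 16.4% of all genes. Its median was 0.15, which became -0.04 after quantile normalization. The double-positive and cortical medians were 0.10 and 0.12 after it, and that of the chaperones was -0.26. Rps6, a dimmer ribosomal protein probe set, gave 169.9 and 191.5 against 285.7 and 293.6 (0.64, adjusted p = 0.307). The part of the level dependence in the single lists was not tested further.

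Myeloid genes divided. Of 7 tested neutrophil genes 3 had both arrays below and 1 above, with a median of -0.22, which ranged from -0.12 (without untreated replicate 1) to -0.40 (without genistein replicate 1). S100a8, a calcium-binding protein of neutrophil cytoplasm, gave 283.9 and 269.8 untreated and 158.5 and 157.4 with genistein (-0.75, adjusted p = 0.342), and its partner S100a9 gave 196.3 and 180.7 against 95.1 and 138.9 (-0.64, adjusted p = 0.363). The summed signal of the list was 1007 and 971.7 untreated and 726.5 and 759 with genistein. Of 16 macrophage genes 7 had both arrays above and 2 below, with a median of 0.10. At an unadjusted p under 0.05 in limma, none of the 16 was higher and 1 was lower. Those above included the complement genes C1qa, C1qb and C1qc at 0.28, 0.34 and 0.18. Another 2 C1qb probe sets disagreed with each other, at 0.15 and -0.36, both with non-overlapping arrays. Lyz2, the lysozyme of macrophages and neutrophils, went against them, with 969.8 and 1207.1 against 747.7 and 767.6 (-0.51 ± 0.145, adjusted p = 0.307).

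Over all genes 16.4% had both genistein arrays below both untreated arrays and 22.3% had both above, and the counts of the next lists are read against these shares. Antioxidant enzymes had 4 of 13 with both arrays below and 1 above. The median of -0.05 was -0.002 without untreated replicate 1 and -0.20 without untreated replicate 2. The 4 were Cat, catalase, at -0.62, the glutathione peroxidases Gpx4 at -0.50 and Gpx1 at -0.44, and the peroxiredoxin Prdx2 at -0.26. Gpx1 gave 730.4 and 993 untreated and 627.2 and 618 with genistein (adjusted p = 0.356), whereas a second Cat probe set overlapped at -0.07 and a second Gpx4 probe set at -0.24. Proliferation showed no common shift: the median was 0.01 over 22 mitosis genes, of which 8 had both arrays above and 1 below, and -0.02 over 26 DNA replication genes. The mitosis median was -0.10 without untreated replicate 1 and 0.13 without untreated replicate 2. Oxidative phosphorylation genes were even, with 4 of 27 above, 4 below and a median of -0.005. In the fibroblast list, Col1a2, a chain of type I collagen, gave 152.9 and 167 against 239.6 and 249.8 (0.57, adjusted p = 0.307), but its second probe set differed by -0.27 with overlapping arrays, and the list median was 0.02.

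The later days of the same diet were set against day 2. This comparison reuses the day 2 arrays by which the named genes were chosen. Some move back towards untreated levels is therefore expected from the choice itself, and its part was not tested. Against genistein day 2, limma called no probe set at day 3 (481 higher, 3.54%, and 497 lower, 3.66%, at an unadjusted p under 0.05) and none at day 6 (460 higher, 3.39%, and 395 lower, 2.91%). Slc2a4 stayed high, with 63.2 and 80.6 at day 3 and 77.3 and 79.4 at day 6. C77080 gave the smallest p at day 3, with 79.6 and 90.6 (1.08 above day 2, adjusted p = 0.296), and 41.7 and 49.8 at day 6. Hsph1 gave 249 and 201 at day 3 and 278 and 264.4 at day 6, still below both untreated arrays. The chaperone list median was 0.09 above day 2 at day 3 and 0.19 above it at day 6. Uck2 was lower at day 6, with 322.8 and 324.7 (-0.84 against day 2, adjusted p = 0.448), which is within the range of the untreated arrays. S100a8 gave 462.7 and 295.5 at day 3, both above the untreated arrays, and 188.4 and 260.3 at day 6.

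**Figure D5:**
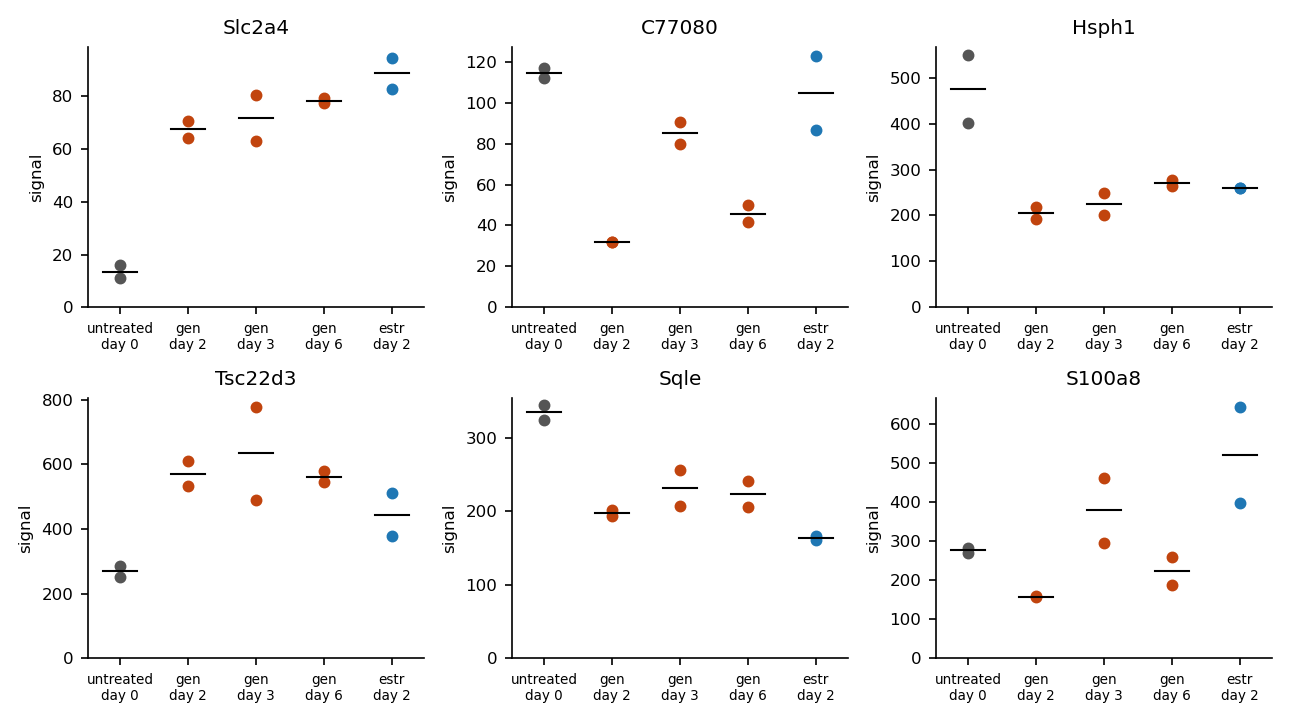
Signal (linear axis from 0) on each array (points) with the group mean (bar) for 6 genes in untreated mice, at days 2, 3 and 6 of genistein and at day 2 of estradiol. Slc2a4 is near 13 untreated and above 60 in every treated array shown, C77080 is lowest at genistein day 2 (31.7 and 32), and Hsph1 and Sqle are below both untreated arrays in every treated array shown.

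On the same day, estradiol and genistein mice differed in 11 probe sets, all higher with estradiol (0.081% of those tested), and in none lower. The Gapdh 3' to 5' ratio was 1.266 and 0.9277 on the estradiol arrays, against 0.8668 and 0.9288 with genistein. Estradiol replicate 2 was among the 3 arrays deposited at another scale. With the Gapdh ratio as a covariate 6 probe sets were called, all higher with estradiol, and 4 of them were shared with the 11. At an unadjusted p under 0.05 in limma, 591 were higher with estradiol (4.35%) and 321 lower (2.36%). The estradiol mice were also injected with oil, so hormone, injection and vehicle cannot be told apart. Lifr, the receptor of leukaemia inhibitory factor, gave 150.7 and 257.6 with genistein and 681.1 and 684 with estradiol (1.71, adjusted p = 0.0283). Retnla, a secreted product of alternatively activated macrophages, gave 76.2 and 83.8 against 328.1 and 245 (1.64, adjusted p = 0.0104). S100a8 gave 158.5 and 157.4 against 642.9 and 397.8 (1.59, adjusted p = 0.0374), with genistein below and estradiol above the untreated arrays. C77080 gave 31.7 and 32 against 122.7 and 86.8 (1.32, adjusted p = 0.0138). The count of 11 was 1 without replicate 1 of genistein day 2, 1 (in the lower direction) without replicate 1 of estradiol day 2 and 5 without replicate 1 or without replicate 2 of estradiol day 6.

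Of the 24 genes named above, C77080 alone passed the test of this difference, and the lowest adjusted p among the others was that of Vdac3, at 0.151. Slc2a4 gave 82.9 and 94.5 with estradiol, 0.33 ± 0.193 above genistein (adjusted p = 0.836). Hsph1 gave 259.3 and 259.8 (0.32 ± 0.170 above, adjusted p = 0.809), Sqle 161.1 and 166.8 (0.25 ± 0.161 on the log2 scale below, adjusted p = 0.869), and Tsc22d3 377 and 510.3 (0.37 ± 0.197 below, adjusted p = 0.811). These p values do not show that the treatments act alike. Fdps had one of the smallest p in the lower direction, with 333 and 359.1 under genistein and 210.9 and 185.6 under estradiol (-0.76, adjusted p = 0.151).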

How the data were processed

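Deposited signals of 14 arrays, intensity values made by the authors with MAS5 5.0 per the submitters' processing notes, were used; detection calls were not used here. No source used here names a genome build. A total of 64 control probe sets were removed. All arrays were multiplied to 1 trimmed mean (150.04, 2% trimmed at each end), which 11 already had and 3 estradiol arrays did not. After adding 16 and taking log2, the lowest 40% of probe sets by mean were left out. The 7 group means were fitted with limma 3.58.1 under R 4.3.3, with a trend of the variance on intensity. The number of arrays limits the precision, and 2 against 2 allow no exact permutation p below 0.333. In simulated data of 13575 probe sets, 83 of 100 shifted 2-fold and 100 of 100 shifted 4-fold were recovered for this comparison. There were 8 false calls among the probe sets that were not shifted. The simulated noise was independent between arrays and held no outlying array, so these rates need not hold for the real arrays.

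Genes were named by rule: the 12 largest called rises and falls, filled with the smallest p among genes with non-overlapping arrays, up to 4 members of a described list, and fixed look-ups. In the other comparisons these were the 4 largest called or the 3 smallest p. Other members were named by role or, like the minor probe sets of Klf9 and Col1a2, after their values were seen. Symbols came from the platform annotation (20380 probe sets with 1 symbol, 691 with several, 1555 with none), and 20351 matched the current table. The groups compared, and the gene lists, were chosen with earlier results of these data known. Figures were drawn with matplotlib 3.10.9.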

Additional observations from a re-analysis of the deposited data

Results flagged for a closer look

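The difference between estradiol and genistein at day 2 passed limma's adjusted p for 11 probe sets, all higher with estradiol, and these are the results in which the treatments differ by a test of the difference itself. The log2 differences of named genes were 1.71 for Lifr, 1.64 for Retnla, 1.59 for S100a8, 1.32 for C77080, 1.10 for Lpl, the lipase that frees fatty acids from lipoproteins, and 1.02 for Cbr2, a carbonyl reductase. Lpl gave 266.4 and 268.1 with genistein, 252.1 and 252.5 untreated and 705.6 and 496.6 with estradiol, and Cbr2 gave 688.2 and 540.7, 614.6 and 552.7, and 1301.7 and 1215.4 in the same order. Minor probe sets of Me1, malic enzyme, and Ighm, the immunoglobulin heavy chain mu, differed by 2.23 and 1.26. The remaining 3 probe sets, which carry several symbols or none, differed by 1.01, 0.88 and 1.11. C77080 is the only one of the 11 that also passed the test for genistein against untreated.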

How the results depend on the processing

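Of the 24 named genes, 0 of 639 alternative values changed direction. Of 1134 alternative list medians, 130 moved by more than the SD of that median between the genistein arrays. The 2 calls became 4 with a pseudocount of 1, 7 with the Gapdh ratio as a covariate, and 0 with a pseudocount of 64, with no filter, with the lowest 60% left out, with only the groups compared and without the 3 rescaled arrays. Leaving out 1 array at a time gave 0 to 287 calls (the lone array is then assumed to vary like the other groups), 0 to 8 for day 3 and 0 to 1 for day 6 of genistein against day 2, and 1 to 16 for estradiol. The 11 calls of estradiol against genistein became 7 with median centring, 43 as deposited, 5 with only the groups compared and 6 with the Gapdh covariate. With the replicate block (replicate number as a term) there were 3 calls, and 9 of estradiol against genistein. Same-numbered untreated and genistein arrays deviated with a correlation of 0.065, and 5 of 21 pairs of groups exceeded 0.1 (from -0.256 to 0.351). These values do not settle whether the numbers pair the arrays. The 5293 probe sets with non-overlapping arrays became 8105 with no filter and 8417 to 10226 with 1 array left out, since fewer arrays overlap less often. With 1 array left out, the difference of Rag1 ranged from -0.095 to 0.014 and that of Nr3c1 from -0.125 to 0.044, changing sign around 0 (Nr3c1 also at 0.03 without untreated replicate 2). Dim genes such as Slc2a4 and Abcc3 are limited by signal over background. The causes were not tested.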
